A study of Mus musculus with 36 samples.

Results

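The comparison described here asks for which liver transcripts the effect of deleting the insulin receptor in hepatocytes differed between Zeitgeber time 12 h after lights-on (ZT12) and ZT8. It compares 24 of the 36 arrays of the series, 6 in each of 4 groups: controls and knockouts at ZT8 and at ZT12. All 36 arrays entered the fit. For each gene, the log2 ratio of knockout to control at ZT8 was subtracted from the same ratio at ZT12. A difference above 0 means that the ratio was higher at ZT12, and a difference below 0 that it was lower. Of 22892 genes tested, 287 (1.25%) had a Benjamini-Hochberg adjusted p below 0.05 in limma and are called below.

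All animals were male C57BL/6J mice of 11 weeks with free access to chow. Knockouts (IRhep-/-) carried loxP sites around the fourth exon of Insr and a tamoxifen-inducible Cre recombinase under the transthyretin promoter (TTR-CreTam), which is active in hepatocytes. Controls are labelled IRhep+/+. The time of tamoxifen treatment is not given in the labels, nor is the Cre or tamoxifen status of the controls. The labels list each array as a separate liver sample, and p-values measure the spread between these samples.

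Insulin reaches the liver at high levels after meals, and mice eat mostly after lights-off. Through its receptor on hepatocytes it promotes glucose storage and lipid synthesis and restrains gluconeogenesis, amino acid breakdown and fatty acid oxidation. ZT8 falls in the resting phase, when liver metabolism leans on fatty acids released from adipose tissue, and ZT12 is when the active phase opens. The liver clock runs on a loop in which ARNTL and CLOCK switch on their own repressors.

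Expression is given as log2 signal minus the log2 of that array's 75th percentile, so that 0 marks the percentile. Over the 24 arrays, that percentile lay between 331 and 525 intensity units, 53.7% to 62.4% of spots were well above background, and none was saturated. Knockout replicate 3 at ZT8 stood apart. On the second principal component of all 36 arrays it scored 3.11, whereas the other 5 knockouts at ZT8 scored 29.2 to 45.9 and the knockouts at ZT12 -14.4 to 4.35. Its mean over 8 neutrophil markers was -0.05, against -2.82 to -2.03 in those 5, and its mean over 10 pericentral genes was 2.81, against 3.72 to 3.96. Without it, 941 genes (4.11%) were called in place of 287, and all 287 were among them with the same sign. The called genes described at length below are therefore given with and without that array. A control at ZT12, replicate 2, also stood apart on 8 female-biased liver genes, with a mean of 1.17 against -0.81 to -0.43 in the other 5. Without it 224 genes were called.

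The deleted gene was read first. The brighter Insr probe (chromosome 8, 3155472 to 3155531, build mm9) read -1.81 to -1.01 (median -1.40) in controls at ZT8 and -3.54 to -2.94 (median -3.05) in knockouts. At ZT12 it read -1.86 to -1.44 (median -1.58) in controls and -3.95 to -3.29 (median -3.44) in knockouts. Every knockout lay below every control at both times, and the fitted signal left in knockouts was 29.3% at ZT8 and 27.2% at ZT12. The difference between these effects was -0.11 (SE 0.19, 95% interval -0.49 to 0.28, limma adjusted p 0.877). Without knockout replicate 3 at ZT8 it was -0.21 (adjusted p 0.546). A dimmer Insr probe, well above background on 17 of the 24 arrays, gave a difference of -0.52 (SE 0.28). Since the exons that these probes read are not known here, they do not separate intact transcript from transcript without the deleted exon.

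Of the 287 called genes, 129 (0.564% of all tested) had a higher ratio at ZT12 and 158 (0.69%) a lower one. The upward share was 44.9%. It was 55.1% (157 up, 128 down) with quantile normalization and 53.4% (165 up, 144 down) with the authors' normalized values. The median size of the difference was 0.72 in called genes and 0.17 over all genes, and 88 called genes differed at least 2-fold, 35 upward and 53 downward. The genotype effect changed sign between the times in 151 of the 287, grew with the same sign in 98 and shrank in 38. In the 129 genes with a higher ratio, the median change from ZT8 to ZT12 was -0.35 in controls and 0.29 in knockouts. In the 158 with a lower ratio it was 0.37 in controls and -0.37 in knockouts. The larger of the 2 changes was that of controls in 63 of the 129 and in 81 of the 158. At ZT16 the genotype effect lay nearer to that at ZT12 than to that at ZT8 in 259 called genes (90.2%). Over all genes tested this share was 60.1%. The ZT16 arrays enter the fit's wash batch terms and spread, and through the batch terms they also bear on the fitted difference. With only the 24 arrays in the fit, 196 genes were called, 164 of them among the 287. Since called genes were picked for a wide gap between the ZT8 and ZT12 effects, the 2 shares are not like for like and only describe. The same choice favours sign changes of the effect and opposite changes in the 2 genotypes. Shares of these over all genes were not computed, so those counts and medians only describe as well.

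**Figure D1:**
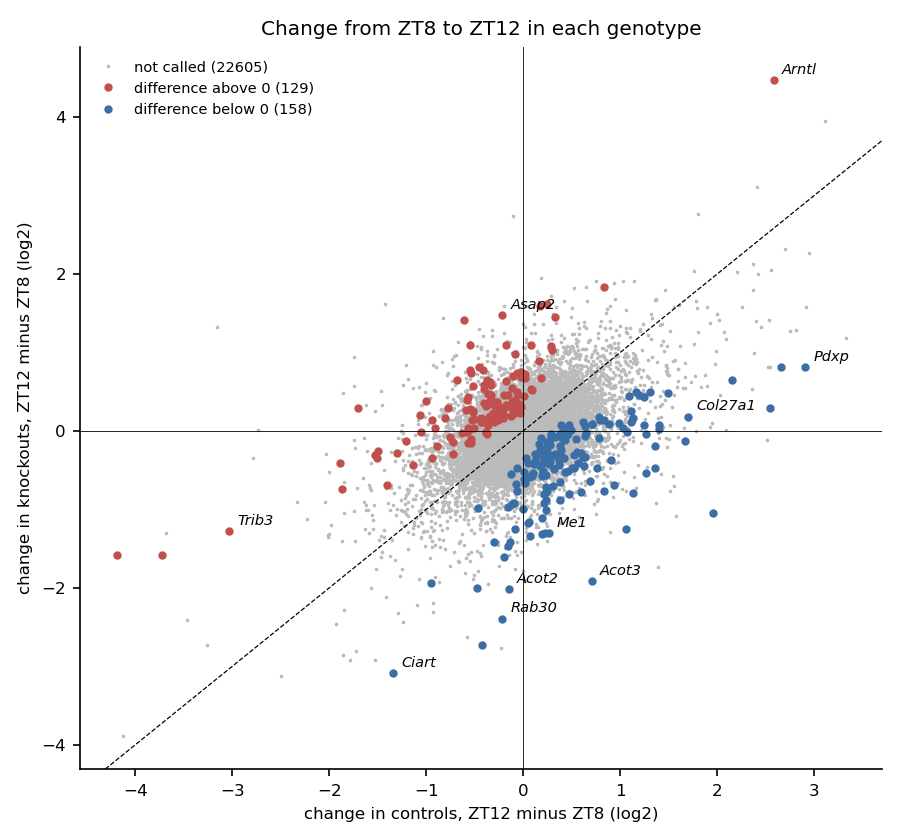
Change from ZT8 to ZT12 (log2) in controls (horizontal axis) and in knockouts (vertical axis), one point per gene, with the 129 called genes of higher ratio at ZT12 in red, the 158 of lower ratio in blue and the others in grey. The dashed line marks equal change in both genotypes. The called genes, chosen for a gap between these changes, lie off it on both sides, with median changes of -0.35 and 0.29 (red) and of 0.37 and -0.37 (blue).

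Genes of fatty acid oxidation and of its regulator PPARα, a nuclear receptor for fatty acids, shared one direction. All 30 genes of this list had a lower knockout to control ratio at ZT12 than at ZT8, with a median difference of -0.53 against -0.02 over all genes. Only 4 of the 30 were called with all arrays, against 0.69% of all genes in that direction, and 15 without knockout replicate 3 at ZT8, all 15 downward (median -0.69), against 2.36% of all genes. Over all genes, 53.8% lay below 0. The 4 were the acyl-CoA thioesterases Acot2, Acot3 and Acot4, which release free fatty acids from coenzyme A, and Cpt2, which hands fatty acids to the mitochondrial β-oxidation enzymes.

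Acot2, the mitochondrial member (chromosome 12, 85334553 to 85334612, mm9), read -1.13 to -0.08 (median -0.90) in controls at ZT8 and 0.40 to 3.14 (median 0.98) in knockouts. At ZT12 it read -1.58 to 0.28 (median -1.07) in controls and -1.51 to -0.34 (median -0.87) in knockouts. The genotypes did not overlap at ZT8 and overlapped almost fully at ZT12. The genotype effect was 2.00 at ZT8 (limma adjusted p 1.49e-05) and 0.13 at ZT12 (adjusted p 0.773), a difference of -1.87 (SE 0.46, adjusted p 0.0379). Without knockout replicate 3 at ZT8 the difference was -2.09 (adjusted p 0.00744).

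The peroxisomal Acot3 (chromosome 12, 85400452 to 85400511) went the same way, but its arrays were widely spread. It read -1.02 to 2.37 (median 0.93) in controls and 1.04 to 4.53 (median 2.82) in knockouts at ZT8. At ZT12 the values were 0.60 to 2.93 (median 1.16) and -0.04 to 1.57 (median 0.71). Genotypes overlapped at both times, and the difference was -2.62 (SE 0.67, limma adjusted p 0.0427; without knockout replicate 3 at ZT8 -3.04, adjusted p 0.00428). Acot4 (chromosome 12, 85384821 to 85384880), also peroxisomal, had an effect of 1.16 at ZT8 (adjusted p 4.1e-05) and -0.22 at ZT12 (adjusted p 0.412). Its difference was -1.38 (SE 0.29, adjusted p 0.0133; without that array -1.55, adjusted p 0.00126), and a second Acot4 probe gave -1.37. Fitted on the 24 arrays alone, Acot4 missed the threshold (adjusted p 0.053). These thioesterase genes are close copies that lie side by side, and how far their probes share signal is not known here.

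Cpt2 (chromosome 4, 107576571 to 107576610) read 5.37 to 5.66 (median 5.42) in controls and 5.08 to 5.76 (median 5.17) in knockouts at ZT8. At ZT12 controls read 5.45 to 5.83 (median 5.69) and knockouts 4.83 to 5.05 (median 4.98), with no overlap. Here the genotype effect was larger at ZT12, -0.68 against -0.20, and the difference was -0.49 (SE 0.12, limma adjusted p 0.0373; without knockout replicate 3 at ZT8 -0.55, adjusted p 0.00662). So the members share a sign of difference but not one pattern: the thioesterases were higher in knockouts at ZT8 only, whereas Cpt2 was lower in knockouts at ZT12.

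Knockout replicate 2 at ZT8 and control replicate 2 at ZT12 carried high values of these genes. The list mean was 5.23 on the former, against 3.32 to 4.48 on the other 5 knockouts, and 4.23 on the latter, against 3.50 to 3.72 on the other 5 controls. The calls on Acot2, Acot3 and Cpt2 were lost when either array was left out, with differences of -1.47, -2.25 and -0.39 without knockout replicate 2 and -1.67, -2.36 and -0.45 without control replicate 2. In all, the call was lost on leaving out any 1 of 13, 16 and 14 of the 24 arrays, respectively. That on Acot4 was kept in every such fit. The Cpt2 call was also lost under 6 of 12 other settings, quantile normalization and the authors' normalized values among them. That on Acot3 was lost under 4 and that on Acot2 under 2, the fit on the 24 arrays alone among them. The list's median was -0.40 without knockout replicate 2.

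Genes of the list that were not called with all arrays had large differences with wide errors. Cyp4a14, a fatty acid ω-hydroxylase, differed by -2.54 (adjusted p 0.307; without knockout replicate 3 at ZT8 -3.13, adjusted p 0.0911), but only 3 of 6 control arrays at ZT8 and 1 of 6 at ZT12 measured it above background. Pdk4, a kinase that inhibits pyruvate dehydrogenase, differed by -1.64 (SE 0.64, limma adjusted p 0.242), and by -2.01 (adjusted p 0.058) without that array. Ppara itself read 6.00 to 6.43 (median 6.14) in controls and 5.04 to 6.49 (median 5.92) in knockouts at ZT8. At ZT12 it read 5.80 to 6.33 (median 6.13) and 4.92 to 5.49, so that the groups separated at ZT12. Its difference was -0.63 (SE 0.21, limma adjusted p 0.136) with all arrays and -0.84 (adjusted p 0.00128) without knockout replicate 3 at ZT8. Plin2, a lipid droplet coat protein, also passed without that array (-1.40, adjusted p 0.00858), and both passed with array weights. Those weights gave that array the lowest weight, 0.197, so this is no separate support.

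**Figure D2:**
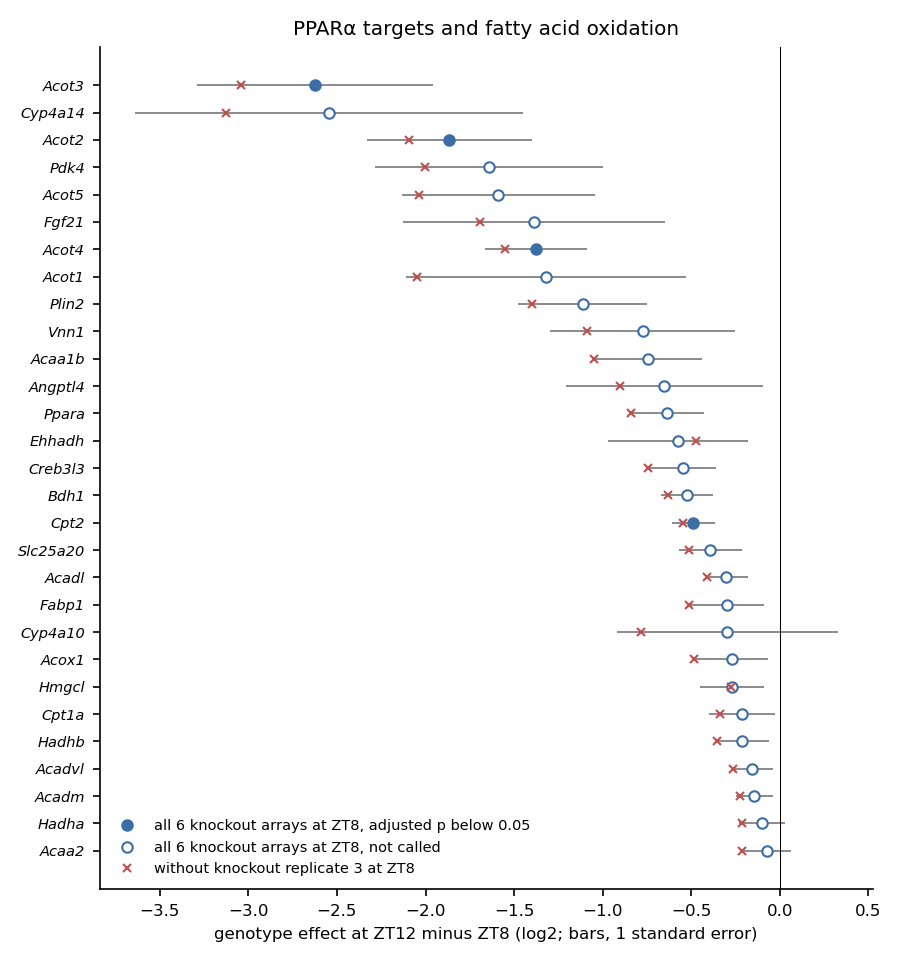
Difference of the genotype effect, ZT12 minus ZT8 (log2), for 29 of the 30 genes of PPARα and fatty acid oxidation, with 1 standard error. Filled circles are the 4 called genes, open circles the others and crosses the estimate without knockout replicate 3 at ZT8; every circle lies below 0, from -2.62 to -0.07.

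Carnitine genes outside the list were among those called. They are described after their values were seen. Slc22a5, the plasma membrane carnitine transporter, read 1.04 to 1.64 (median 1.40) in controls and 1.40 to 3.62 (median 2.83) in knockouts at ZT8, where the low value of 1.40 was replicate 3 and the other 5 started at 2.57. At ZT12 both genotypes lay between 1.18 and 1.79. The difference was -1.23 (SE 0.30, limma adjusted p 0.0353; without replicate 3 -1.51, adjusted p 0.000162). Crat, carnitine acetyltransferase, differed by -1.28 (SE 0.32, adjusted p 0.0419; without replicate 3 -1.48, adjusted p 0.00472). Without knockout replicate 2 at ZT8 both missed the threshold, at adjusted p 0.065 and 0.0597, as they did on leaving out any 1 of 13 and 15 of the 24 arrays. Each call was also lost under 4 of 12 other settings. Crot, which moves shortened acyl chains out of the peroxisome, went the other way on its brighter probe (0.71, adjusted p 0.029; without replicate 3 0.62, adjusted p 0.0256) but not on a dimmer one (-0.57). Its call was lost on leaving out any 1 of 7 arrays and under 3 of 12 other settings.

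Genes of fatty acid synthesis, which insulin normally induces, had a median difference of -0.43. Of 18, only Me1 was called, and 5 were called without knockout replicate 3 at ZT8, all downward, against 0.69% and 2.36% of all genes. Me1, the cytosolic malic enzyme that supplies NADPH for lipid synthesis (chromosome 9, 86475077 to 86475136), read 4.64 to 5.67 in controls and 3.46 to 5.19 in knockouts at ZT8. At ZT12 controls read 5.07 to 6.15 (median 5.31) and knockouts 2.09 to 3.65 (median 3.28), and the genotypes no longer overlapped. The effect went from -0.73 (limma adjusted p 0.0184) to -2.29 (adjusted p 6.85e-09), a difference of -1.56 (SE 0.34, adjusted p 0.0177; without that array -1.74, adjusted p 0.00282). A second, dimmer Me1 probe gave -0.86, and the mean of both missed the threshold. Within the list, Fasn and Acly, the core enzymes of the pathway, had differences of -0.39 (adjusted p 0.707; without that array -0.44) and -0.47 (adjusted p 0.625; -0.44), and Srebf1, which encodes the transcription factor SREBP1, one of 0.32 (adjusted p 0.674; 0.40).

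Glucose uptake and glycogen genes had a median difference of -0.39, with 15 of 17 below 0, against 53.8% of all genes. With all arrays 1 of the 17 was called, downward, and 7 were called, all downward, without knockout replicate 3 at ZT8, against 0.69% and 2.36% of all genes. Gys2, the liver glycogen synthase, read 6.19 to 6.48 in controls at ZT8, whereas its knockouts ran from 6.55, which was replicate 3, to 7.60. Gys2 was not called with all arrays (-0.69, limma adjusted p 0.0572) and was without replicate 3 (-0.87, adjusted p 0.000207). It was also called under 5 of 12 other settings, array weights among them, and without knockout replicate 1 at ZT12.

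Several genes with the largest falls in ratio belong to none of these lists. Pdxp, a phosphatase that removes the phosphate from pyridoxal 5-phosphate, the active form of vitamin B6, had the smallest adjusted p of all 287. Its probe (chromosome 15, 78749699 to 78749758) read -4.36 to -3.46 (median -3.93) in controls and -3.19 to -2.64 (median -2.76) in knockouts at ZT8. At ZT12 it read -1.36 to -0.40 (median -1.10) in controls and -2.45 to -1.89 (median -2.08) in knockouts. Every knockout lay above every control at ZT8 and below every control at ZT12. Controls rose by 2.91 between the times and knockouts by 0.82, a difference of -2.09 (SE 0.26, limma adjusted p 0.000156; without knockout replicate 3 at ZT8 -2.08, adjusted p 6.25e-05).

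Pdxk, the kinase of the opposite reaction, was also called, with a smaller difference of -0.88 (SE 0.14, limma adjusted p 0.00119; without that array -0.99, adjusted p 1.4e-05). Controls read 4.63 to 4.74 at ZT8 and 5.29 to 5.57 at ZT12, whereas knockouts were already at 4.87 to 5.63 at ZT8 and at 5.13 to 5.46 at ZT12. In controls alone the level rose between the times (0.78, adjusted p 1.6e-06), and in knockouts the change was -0.09 (adjusted p 0.633). Both vitamin B6 genes kept their calls in every fit that left out 1 array.

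Rab30, a Golgi-associated small GTPase (chromosome 7, 99985062 to 99985121), read -2.02 to -0.33 (median -1.10) in controls and -0.72 to 2.20 (median 0.75) in knockouts at ZT8. Apart from replicate 3, at -0.72, the knockouts started at 0.55. At ZT12 both genotypes lay between -2.65 and -0.58. The effect was 1.76 at ZT8 (limma adjusted p 0.000111) and -0.42 at ZT12 (adjusted p 0.328), and the difference -2.17 (SE 0.47, adjusted p 0.0172; without replicate 3 -2.49, adjusted p 0.00117). It missed the threshold when fitted on the 24 arrays alone.

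Leap2, which encodes a liver peptide that opposes ghrelin at its receptor (chromosome 11, 53235798 to 53235857), was far lower in knockouts at both times. It read 4.88 to 5.41 (median 5.01) in controls and 1.29 to 2.19 (median 1.80) in knockouts at ZT8, and 4.74 to 5.70 (median 5.04) and -0.21 to 0.85 (median 0.38) at ZT12. The change between the times was 0.07 in controls (limma adjusted p 0.853), while knockouts fell by 1.34. The effect thus deepened from -3.36 to -4.77, a difference of -1.41 (SE 0.25, adjusted p 0.00282; without knockout replicate 3 at ZT8 -1.46, adjusted p 0.00128).

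Col27a1, a fibrillar collagen chain (chromosome 4, 62995485 to 62995544), showed the reverse arrangement. Controls went from -0.56 to 0.30 (median -0.23) at ZT8 to 1.14 to 1.75 (median 1.53) at ZT12, whereas knockouts read -2.73 to -2.15 (median -2.39) and -2.90 to -1.54 (median -2.19). The rise of 1.70 in controls (limma adjusted p 6.1e-09) had a counterpart of 0.18 in knockouts (adjusted p 0.541), and the difference was -1.52 (SE 0.23, adjusted p 0.000752; without that array -1.56, adjusted p 0.000261).

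Ak4, a mitochondrial adenylate kinase (chromosome 4, 101139464 to 101139523), read 4.03 to 4.47 (median 4.34) in controls and 3.83 to 5.37 (median 5.19) in knockouts at ZT8, where the low value was again replicate 3. At ZT12 all knockouts, at 3.40 to 3.86, lay below all controls, at 4.33 to 4.81. Its difference was -1.53 (SE 0.26, limma adjusted p 0.00267; without replicate 3 -1.76, adjusted p 1.4e-05). Cgref1 (chromosome 5, 31235564 to 31235623) was higher in all knockouts at ZT8, at -0.76 to -0.14 against -2.10 to -1.53, and overlapped at ZT12, with a difference of -1.60 (SE 0.25, adjusted p 0.001; without replicate 3 -1.55, adjusted p 0.000845).

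In amino acid catabolism and the urea cycle, 1 of 21 genes was called, downward, against 0.69% of all genes. This was Bhmt, which remethylates homocysteine with betaine (chromosome 13, 94386862 to 94386921). It read 8.44 to 8.96 (median 8.73) in controls and 7.83 to 8.63 (median 8.21) in knockouts at ZT8, and 7.98 to 8.97 (median 8.64) and 5.32 to 7.27 (median 6.50) at ZT12. The genotypes overlapped at ZT8 and not at ZT12. The difference was -1.41 (SE 0.32, limma adjusted p 0.0216; without knockout replicate 3 at ZT8 -1.44, adjusted p 0.0119), and the call was lost without knockout replicate 5 at ZT8 or control replicate 5 at ZT12, on the 24 arrays alone and with the mean of all probes.

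**Figure D3:**
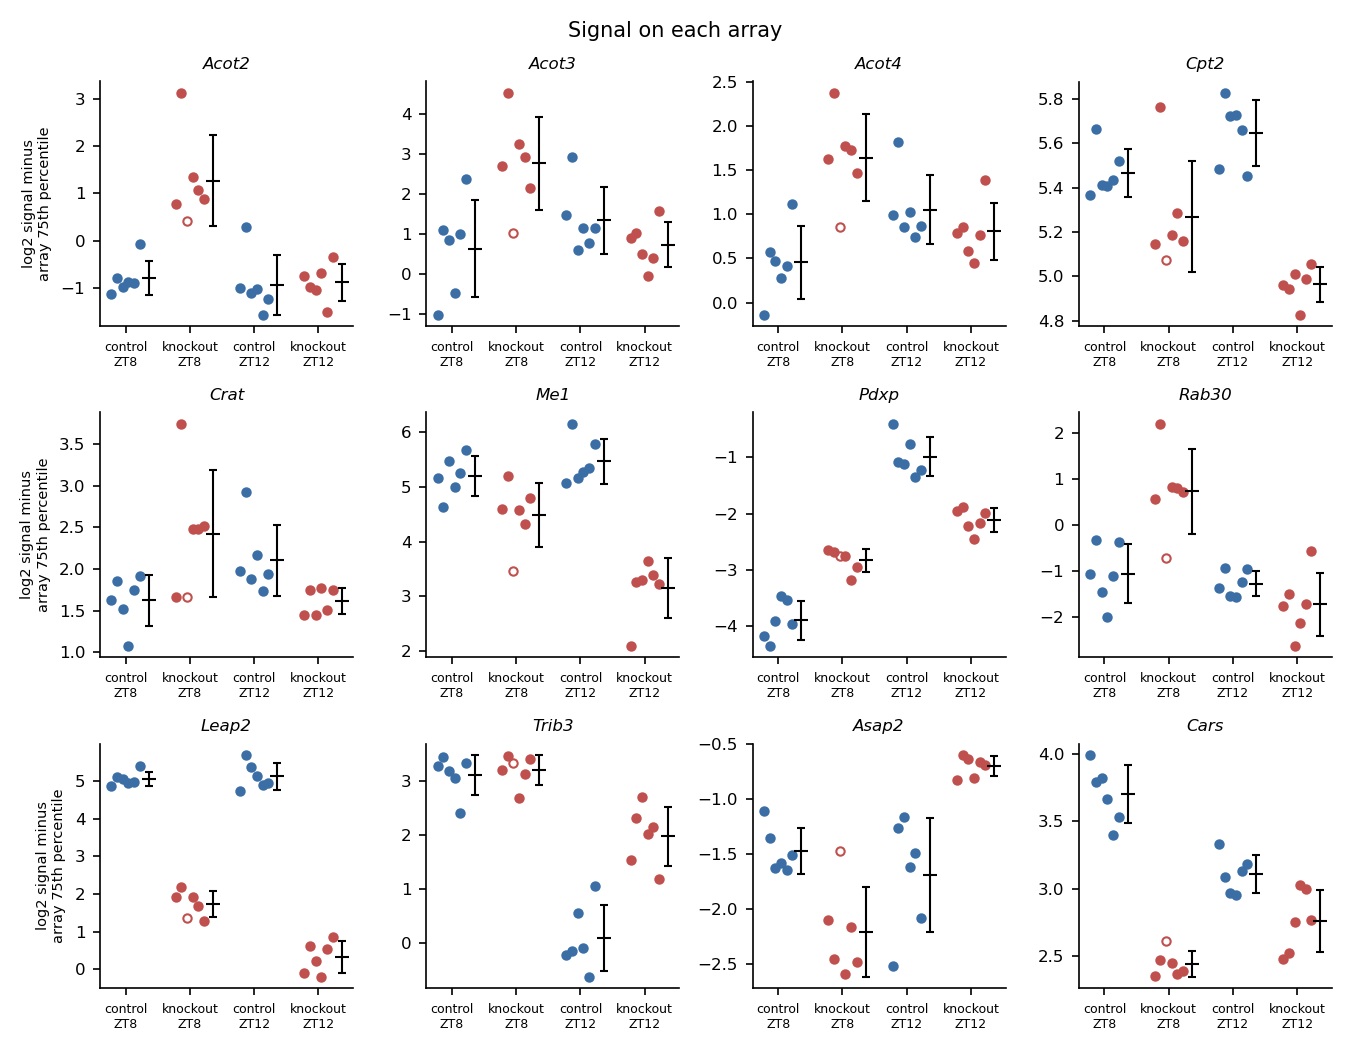
Log2 signal (0 is the array's 75th percentile) on each of the 24 arrays for 12 genes, with controls in blue, knockouts in red, knockout replicate 3 at ZT8 as an open circle, and mean ± SD (n = 6) in black. Pdxp crosses over between the times, Acot2 separates the genotypes at ZT8 only, Cpt2 at ZT12 only, and Leap2 at both with a wider gap at ZT12.

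Among 18 tested clock genes, 4 were called, against 1.25% of all genes: Arntl, Clock and Bhlhe41 upward and Ciart downward. Bhlhe41 passed the filter on dim probes only through the 6 controls at ZT8, where it is high, and its call adds nothing to this count. The list's median difference was -0.10, and 7 were called without knockout replicate 3 at ZT8, against 4.11% of all genes. In the loop, ARNTL and CLOCK bind E-boxes as a pair, CIART represses that pair and BHLHE41 competes for the same sites, while ROR and REV-ERB receptors bind the half-site AGGTCA. Proximal promoters were searched for the E-box CACGTG and for AGGTCA on both strands, over the 250 bases before each annotated start (RefSeq, GRCm38.p6). The E-box occurs in 6.02% of 32851 such promoters and AGGTCA in 14.0%. Windows of 100 bases that hold a match, read 5′ to 3′ on the gene's strand with the matches in capitals, are shown for the called clock genes with one:
Ciart, chr3:95882256-95882355, minus strand: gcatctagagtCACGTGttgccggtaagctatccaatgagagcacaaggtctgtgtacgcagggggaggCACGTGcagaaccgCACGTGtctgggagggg
Bhlhe41, chr6:145865521-145865620, minus strand: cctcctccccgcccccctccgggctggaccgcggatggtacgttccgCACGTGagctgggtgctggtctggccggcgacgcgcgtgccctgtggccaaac
Clock, chr5:76303569-76303668, minus strand: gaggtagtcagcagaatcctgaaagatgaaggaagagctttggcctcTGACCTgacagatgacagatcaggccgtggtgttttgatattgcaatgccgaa
Ciart held 3 E-boxes, Bhlhe41 held 1, and 1 of the 3 annotated starts of Clock had an AGGTCA, here on the opposite strand as TGACCT. No annotated start of Arntl had a match in this window. A match describes the sequence and is not evidence of binding.

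Ciart (chromosome 3, 95682433 to 95682492, mm9) read 0.03 to 1.05 (median 0.63) in controls and -0.93 to -0.19 (median -0.58) in knockouts at ZT8. At ZT12 it read -1.81 to -0.14 (median -0.70) in controls and -4.59 to -3.46 (median -3.66) in knockouts. Every knockout was below every control at both times, by a wider margin at ZT12. Knockouts fell by 3.09 between the times and controls by 1.34, a difference of -1.75 (SE 0.43, limma adjusted p 0.0347; without knockout replicate 3 at ZT8 -1.81, adjusted p 0.0179). The call was lost on leaving out any 1 of 12 of the 24 arrays, and under 5 of 11 other settings. A dimmer Ciart probe gave -0.62 without passing.

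Clock (chromosome 5, 76639992 to 76640051) read 1.11 to 1.54 (median 1.27) in controls and 0.36 to 0.82 (median 0.62) in knockouts at ZT8. At ZT12 the genotypes lay together, at 1.24 to 1.60 and 1.21 to 1.52. Its effect was -0.70 at ZT8 (limma adjusted p 7.54e-08) and 0.01 at ZT12 (adjusted p 0.943), and the difference 0.71 (SE 0.12, adjusted p 0.00171; without that array 0.72, adjusted p 0.000915). It was called in every fit that left out 1 array, and 2 dimmer probes gave 0.41 and 0.42 without passing.

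Arntl (chromosome 7, 120456978 to 120457037) at ZT8 read -4.21 to -2.99 (median -3.84) in controls and -6.79 to -3.98 (median -5.04) in knockouts. It was well above background on 5 of 6 control and on 2 of 6 knockout arrays at that time, so the size of the gap there was not fully measured. At ZT12 all arrays measured it, at -1.93 to -0.36 (median -1.04) and -1.22 to -0.31 (median -0.64). The difference was 1.89 (SE 0.47, limma adjusted p 0.0373; without knockout replicate 3 at ZT8 2.17, adjusted p 0.00429), and the call was lost on leaving out any 1 of 11 arrays and under 7 of 11 other settings. Dimmer Arntl probes gave 0.40 and 1.11 without passing. Bhlhe41 was well above background only in controls at ZT8, on all 6 arrays at -3.45 to -3.00. In the 3 other groups no array measured it, and its difference of 2.15 (adjusted p 0.00736; without that array 1.75) is not a measured size. The call was lost with the normexp background, at 0.36.

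The clock genes that were not called with all arrays varied in sign. Per2, a repressor of the ARNTL and CLOCK pair, read 1.56 to 2.43 (median 2.20) in controls and 1.51 to 2.38 (median 2.13) in knockouts at ZT8. At ZT12 controls had risen to 3.00 to 3.28 (median 3.12) and knockouts lay at 1.90 to 2.51 (median 2.14), below all controls. Its difference was -0.80 (SE 0.22, limma adjusted p 0.0695), and -0.88 (adjusted p 0.0211) without knockout replicate 3 at ZT8. Tef and Hlf, which encode PAR-bZIP output factors, were not called with all arrays either and passed without that array, at -0.68 (adjusted p 0.0117) and -0.76 (adjusted p 0.0264). With all arrays, Per2 was also called with the authors' normalized values and with array weights, and Tef with array weights. The weights gave that array the lowest weight, 0.197, so passing with them is no separate support.

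Per3, Dbp and Rora had differences of -0.63 (adjusted p 0.201), -0.63 (adjusted p 0.469) and -0.30 (adjusted p 0.269). Nr1d1 and Nr1d2, the REV-ERB receptors, had 0.24 (adjusted p 0.846) and -0.25 (adjusted p 0.737), and the CLOCK competitor Bhlhe40 had -0.16 (adjusted p 0.789). Values of 0.31 for Nfil3, 0.28 for Cry1, -0.01 for Cry2 and -0.04 for Per1 followed, with adjusted p of at least 0.695. Many of these genes moved strongly with time in both genotypes: Nr1d1 fell by 4.13 in controls and by 3.89 in knockouts, and Cry1 rose by 1.76 and 2.04.

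**Figure D4:**
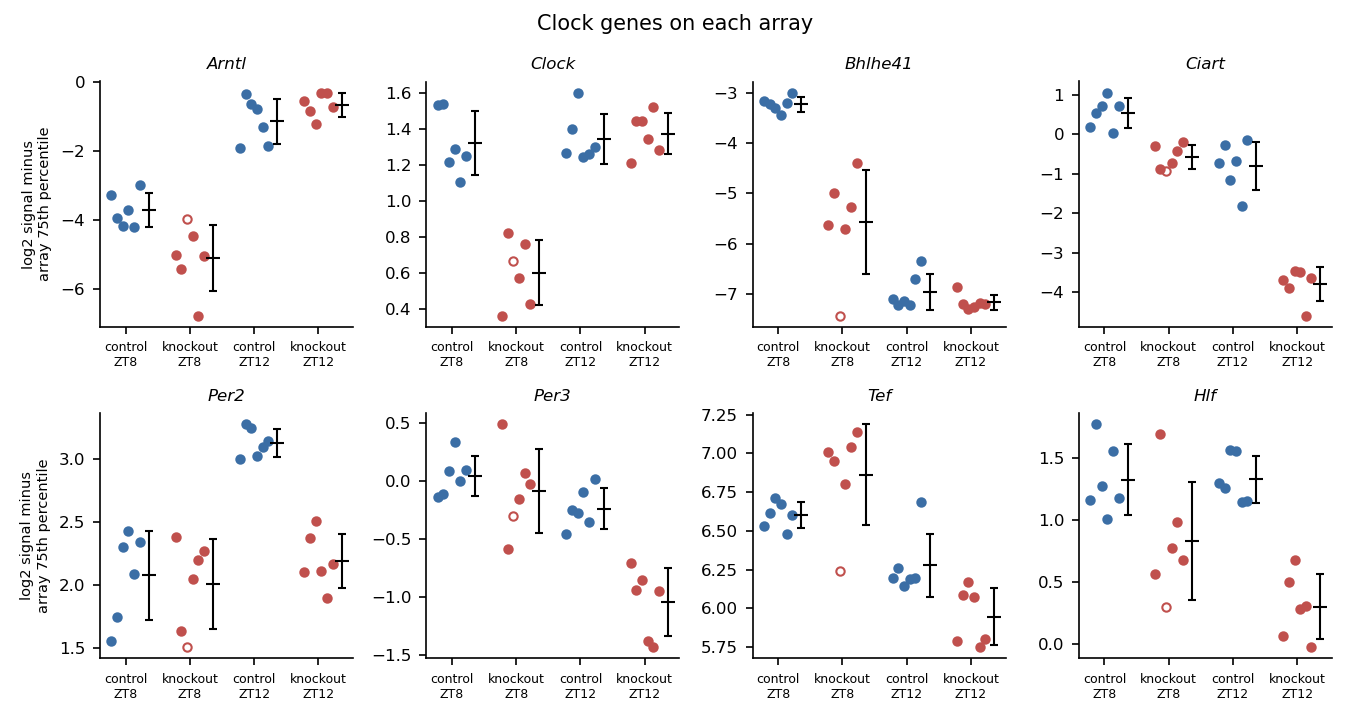
Log2 signal (0 is the array's 75th percentile) on each of the 24 arrays for 8 clock genes, with controls in blue, knockouts in red, knockout replicate 3 at ZT8 as an open circle, and mean ± SD (n = 6) in black. Clock is lower in knockouts at ZT8 only, Ciart is lower at both times and more so at ZT12, and Per2 separates the genotypes at ZT12; Bhlhe41 was well above background only in controls at ZT8.

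Upward differences included that of Trib3, a pseudokinase induced by the stress factor ATF4 (chromosome 2, 152163161 to 152163220). It read 2.41 to 3.45 (median 3.24) in controls and 2.69 to 3.46 (median 3.27) in knockouts at ZT8. At ZT12 controls had fallen to -0.63 to 1.06 (median -0.12), while knockouts were at 1.18 to 2.70 (median 2.08), above every control. Trib3 thus fell in both genotypes, by 3.03 in controls and 1.27 in knockouts, and the difference was 1.75 (SE 0.37, limma adjusted p 0.0123; without knockout replicate 3 at ZT8 1.78, adjusted p 0.00678).

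In the ATF4 and amino acid response list, 2 of 19 genes were called, both upward, against 0.564% of all genes. Beside Trib3, the other was Cars, cysteinyl-tRNA synthetase (chromosome 7, 150743615 to 150743674). It read 3.40 to 3.99 (median 3.73) in controls and 2.36 to 2.61 (median 2.42) in knockouts at ZT8, and 2.95 to 3.33 (median 3.11) and 2.48 to 3.03 (median 2.76) at ZT12. A wide gap at ZT8 became an overlap at ZT12. The difference was 0.85 (SE 0.19, limma adjusted p 0.0177; without that array 0.90, adjusted p 0.00648), and 2 other probes gave 0.92 and 0.88. Atf4 itself had a difference of 0.21 (adjusted p 0.703), and the list's median was 0.29.

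Of 18 genes in FoxO targets and gluconeogenesis, 1 was called, upward, against 0.564% of all genes. This was Sesn1, an inhibitor of mTORC1 signalling and a FoxO target. Its knockouts and controls overlapped at ZT8, at 1.52 to 1.97 and 1.48 to 1.80, and separated at ZT12, at 1.90 to 2.16 and 1.09 to 1.57. The difference was 0.55 (SE 0.13, limma adjusted p 0.023; without knockout replicate 3 at ZT8 0.60, adjusted p 0.00448). It was lost on leaving out control replicate 4 or knockout replicate 5 at ZT8, or control replicate 5 at ZT12, and also on the 24 arrays alone and with no filter on dim probes. Irs2, the insulin receptor substrate gene with the smallest p of 21 insulin signalling genes, was higher in knockouts by 2.30 at ZT8 and 3.65 at ZT12, a difference of 1.35 that was not called (SE 0.42, adjusted p 0.11; without knockout replicate 3 at ZT8 1.12, adjusted p 0.112).

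Of 20 heat shock and cold-inducible genes, 17 lay below 0, against 53.8% of all genes, with a median of -0.28. The 2 called, both heat shock genes and both downward, compare with 0.69% of all genes. Hspa8, the constitutive cytosolic Hsp70 (chromosome 9, 40612755 to 40613050), read 5.39 to 5.62 (median 5.55) in controls and 5.63 to 6.34 (median 6.20) in knockouts at ZT8. At ZT12 both genotypes were higher and lay together, at 6.41 to 6.83 and 6.36 to 6.76. Controls rose by 1.09 and knockouts by 0.45, a difference of -0.64 (SE 0.13, limma adjusted p 0.0113; without replicate 3 -0.74, adjusted p 0.000217). Hsp90aa1, an inducible Hsp90, differed by -0.81 (SE 0.18, adjusted p 0.0179; without replicate 3 -0.78, adjusted p 0.0138), with a rise of 1.31 in controls and of 0.50 in knockouts, but missed the threshold with the slide as a fixed block.

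Other large upward differences fell into several arrangements. Asap2, an ARF GTPase-activating protein (chromosome 12, 21275888 to 21275947), read -1.65 to -1.11 (median -1.55) in controls and -2.59 to -1.47 (median -2.31) in knockouts at ZT8. At ZT12 knockouts, at -0.83 to -0.60, lay above all controls, at -2.52 to -1.17. The genotype effect turned from -0.72 (limma adjusted p 0.00689) to 0.97 (adjusted p 0.000357), a difference of 1.69 (SE 0.29, adjusted p 0.00267; without knockout replicate 3 at ZT8 1.86, adjusted p 0.000261). A second probe gave 1.49, and the mean of all its probes, a very dim one included, missed the threshold.

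In Cdc42ep5, a CDC42 effector, knockouts were higher at both times and more so at ZT12. It read -2.54 to -1.57 (median -2.24) in controls and -1.86 to -1.37 (median -1.58) in knockouts at ZT8, and -3.07 to -2.53 (median -2.72) and -1.15 to 0.41 (median -0.64) at ZT12. The difference was 1.65 (SE 0.26, limma adjusted p 0.001; without that array 1.67, adjusted p 0.000636). Erp27, a non-catalytic endoplasmic reticulum protein of the disulphide isomerase family, and Mpzl1, a cell surface glycoprotein, shared this arrangement, without overlap of the genotypes at either time. Erp27 had effects of 1.24 and 2.65 and a difference of 1.42 (SE 0.32, adjusted p 0.0219; without that array 1.49, adjusted p 0.00951). Mpzl1 had effects of 1.09 and 2.42 and a difference of 1.33 (SE 0.25, adjusted p 0.00616; without it 1.44, adjusted p 0.0012).

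Slc30a10, a manganese exporter, and Nim1k, a kinase related to AMPK, were lower in knockouts at both times and less so at ZT12. Slc30a10 read -0.93 to -0.04 (median -0.56) in controls and -3.15 to -2.23 (median -3.02) in knockouts at ZT8, and -1.15 to -0.40 (median -0.69) and -2.56 to -1.08 (median -1.60) at ZT12. Its difference was 1.27 (SE 0.30, limma adjusted p 0.029; without that array 1.23, adjusted p 0.0235), and the call was lost on leaving out any 1 of 7 arrays, with the normexp background (0.74), the slide as a fixed block, no filter on dim probes or the 24 arrays alone. Nim1k had effects of -2.63 and -1.37 and a difference of 1.26 (SE 0.29, adjusted p 0.0216; without it 1.30, adjusted p 0.011), with 0.36 on a dimmer probe, and missed the threshold with the slide as a fixed block.

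Mrnip, a DNA damage response factor, was lower in knockouts at ZT8 by 1.35 on the log2 scale and by 0.23 at ZT12 (limma adjusted p 0.289), as controls fell by 1.87 and knockouts by 0.74. Its difference was 1.13 (SE 0.24, adjusted p 0.0145; without that array 1.17, adjusted p 0.00625), but a dimmer probe gave 0.04 and the call was lost with the mean of both. Arl13b, a GTPase of primary cilia, overlapped between genotypes at ZT8 and was higher in every knockout at ZT12, at -0.22 to 0.82 against -1.15 to -0.74. Its difference was 1.13 (SE 0.22, adjusted p 0.00854; without it 1.22, adjusted p 0.00162), and a second probe gave 0.93. The Wwox probes disagreed: the brightest gave 1.25 (SE 0.29, adjusted p 0.0256; without it 1.25, adjusted p 0.0167) and another -0.50, so this oxidoreductase gene has no single direction here. Its call was also lost without knockout replicate 2 at ZT8 or knockout replicate 1 at ZT12, and under 4 of 12 other settings.

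Markers of endothelium, which lines the liver sinusoids, leaned upward. All 10 markers had a difference above 0, with a median of 0.60, and 2 were called, Tek, the angiopoietin receptor, and Oit3. Without knockout replicate 3 at ZT8, 6 were called. Over all genes, 0.564% and 1.75% were called upward in these fits, and 46.2% lay above 0. The mean over the 10 ran from 0.50 to 0.90 in controls and from 0.44 to 1.03 in knockouts at ZT8, and from 0.36 to 0.71 in controls and from 0.89 to 1.49 in knockouts at ZT12. Genotypes overlapped at ZT8 and separated at ZT12. In whole-liver RNA, more cells of a type and more RNA per cell cannot be told apart.

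Tek (chromosome 4, 94540861 to 94540919) read -2.94 to -2.06 (median -2.31) in controls and -2.80 to -1.95 (median -2.42) in knockouts at ZT8, and -3.03 to -2.58 (median -2.91) and -2.13 to -1.23 (median -1.96) at ZT12. Its difference was 1.09 (SE 0.24, limma adjusted p 0.0197; without knockout replicate 3 at ZT8 1.12, adjusted p 0.0106), and the call was lost without knockout replicate 5 at ZT8. Oit3 differed by 0.80, with 0.16 on a dimmer probe, and its call was lost with the mean of both. Among the largest upward differences, 2 were genes known from endothelium, the adhesion receptor Adgrl4 and the lectin Clec14a. Adgrl4 differed by 1.27 (SE 0.28, adjusted p 0.0179; without that array 1.28, adjusted p 0.0112), with 0.17 on a dimmer probe, and its call was lost with the mean of both and with the normexp background, where the lowest value was 0.41. Clec14a differed by 1.19 (SE 0.26, adjusted p 0.016; without it 1.28, adjusted p 0.00429), from effects of -0.34 at ZT8 and 0.85 at ZT12. Emcn, Gpihbp1 and Myct1, also endothelial and picked out after their values were seen, had called differences of 0.66, 0.67 and 0.64. These calls were lost on leaving out any 1 of 17, 5 and 18 arrays, and under 6, 2 and 4 of 12 other settings. Without knockout replicate 3 at ZT8 the differences were 0.75, 0.73 and 0.70.

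Markers of the other cell types gave no call with all arrays. Of all genes tested, 46.2% lay above 0 and 53.8% below. All 6 tested red cell genes were above 0, with a median difference of 0.88. Without knockout replicate 3 at ZT8, 3 were called, all upward, against 1.75% of all genes. The mean over the 6 was 1.14 to 3.07 in knockouts and 2.12 to 3.26 in controls at ZT8. At ZT12 it was 1.95 to 3.29 and 1.45 to 2.82, with overlap at both times. All 10 macrophage markers were above 0 (median 0.31), as were 9 of 10 of stellate cells and fibroblasts (median 0.34), and all 8 neutrophil markers were below 0 (median -0.42, and -0.15 without that array). The 9 hepatocyte markers had a median of 0.09. The part of these shifts in the results above was not tested.

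**Figure D5:**
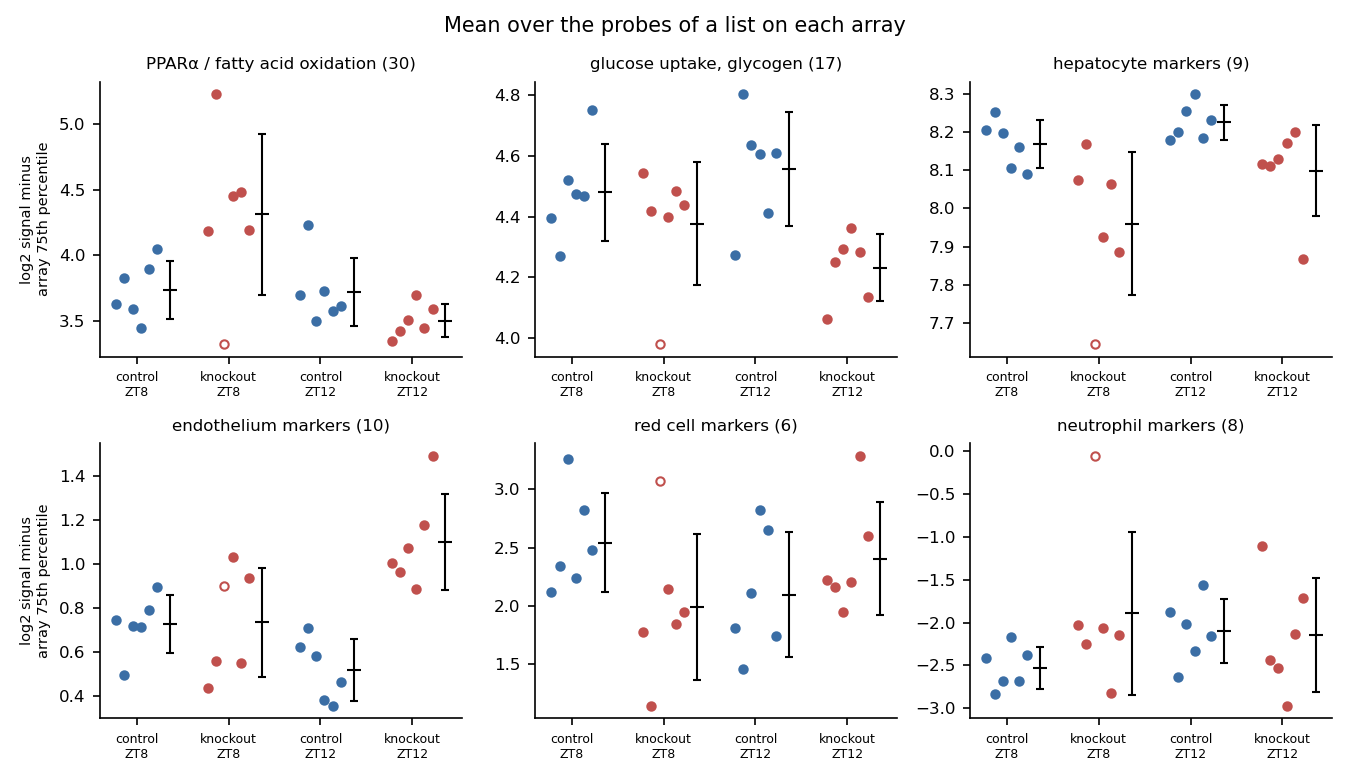
Mean log2 signal over the probes of 6 gene lists on each of the 24 arrays, with controls in blue, knockouts in red, knockout replicate 3 at ZT8 as an open circle, and mean ± SD (n = 6) in black. The endothelium mean is 0.89 to 1.49 in knockouts at ZT12, above all controls at that time, and replicate 3 lies at -0.05 for neutrophil markers and at 3.32 for PPARα and fatty acid oxidation, where the other 5 knockouts start at 4.19.

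A further 654 genes were not called with all arrays and were called without knockout replicate 3 at ZT8. Some of those named here also passed elsewhere with all arrays, as most did with array weights, and G0s2 passed under 5 of 12 other settings. Array weights gave knockout replicate 3 at ZT8 the lowest weight, 0.197, so passing with them is no separate support. G0s2 was also called on leaving out any 1 of 3 other arrays, and Egr1 on leaving out control replicate 5 at ZT8 or control replicate 2 at ZT12. The largest of these upward differences were in Egr1, an immediate early transcription factor, the β-globin genes Hbb-b1, Hbb-b2 and Hbb-bt, and Rgs5, a pericyte regulator of G-protein signalling. Egr1 read 0.60 to 2.54 (median 1.73) in controls and 1.81 to 4.07 (median 2.21) in knockouts at ZT8, where replicate 3 was the highest, and -2.01 to 0.31 (median -1.17) and 0.82 to 4.02 (median 1.97) at ZT12. Its difference was 2.44 with all arrays (SE 0.70, limma adjusted p 0.0782) and 2.74 without replicate 3 (adjusted p 0.0224). The 3 globin genes, close copies whose probes may share signal, had differences of 1.77, 1.71 and 1.51 with all arrays and 1.95, 1.88 and 1.67 without it (adjusted p 0.0333, 0.0352 and 0.0252). Rgs5 went from 1.20 (adjusted p 0.11) to 1.42 (adjusted p 0.0178).

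The largest downward ones were in G0s2, Nr4a2, Acot1, Acot5 and Slc25a34. G0s2, an inhibitor of adipose triglyceride lipase, read 0.37 to 2.84 (median 1.89) in controls and -1.11 to 1.65 (median 0.86) in knockouts at ZT8, and 1.68 to 3.24 (median 2.82) and -2.21 to -0.47 (median -1.22) at ZT12. Knockouts lay wholly below controls at ZT12, and the difference was -2.60 with all arrays (SE 0.69, limma adjusted p 0.0527) and -2.95 without replicate 3 (adjusted p 0.0103). Nr4a2, an orphan nuclear receptor of the immediate early class, read -3.23 to -1.91 in controls and -1.89 to 2.56 in knockouts at ZT8, and its difference moved from -2.05 (adjusted p 0.115) to -2.61 (adjusted p 0.00308).

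Acot1, a further thioesterase of the same gene cluster, was low on replicate 3 at ZT8, at 0.46 against 3.05 to 5.97 in the other 5 knockouts. Its difference moved from -1.32 (SE 0.79, limma adjusted p 0.517) to -2.05 (adjusted p 0.0476) without that array. Acot5 moved from -1.59 (adjusted p 0.159) to -2.04 (adjusted p 0.00823), but a dimmer probe gave -0.25. Slc25a34, a mitochondrial carrier, moved from -1.38 (adjusted p 0.205) to -1.82 (adjusted p 0.00928), but a dimmer probe gave -0.19 with all arrays.

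None of the other 15 gene lists held a called gene with all arrays. The member with the smallest p was Hsd17b7 for cholesterol synthesis (-0.54, limma adjusted p 0.351), Sds for both glucocorticoid-responsive and periportal genes (1.09, adjusted p 0.0706), Edem1 for endoplasmic reticulum chaperones (0.41, adjusted p 0.0906) and Nr1h4, the bile acid receptor FXR, for bile acid genes (-0.69, adjusted p 0.0693). It was Stat5b for the growth hormone axis (0.35, adjusted p 0.261), Selenbp2 and Cyp17a1 for male-biased and female-biased genes (-0.47, adjusted p 0.348, and -0.71, adjusted p 0.171) and Fga for acute phase proteins (0.76, adjusted p 0.0552). For NRF2 targets it was Txnrd1 (-0.26, adjusted p 0.155), for cAMP signalling Gadd45a (-1.31, adjusted p 0.0611), for the cell cycle Ccnd1 (-0.80, adjusted p 0.326) and for pericentral genes Rhbg (-0.42, adjusted p 0.424). Under the 12 other settings, Fga was called in 7, Nr1h4 in 4, Sds in 3, and Edem1 and Gadd45a in 2 each. Each also passed without knockout replicate 3 at ZT8. The other genes named in this paragraph were called in none of these fits. Without that array, the endoplasmic reticulum list held 2 called genes, both upward, and the bile acid list 2, both downward. The glucocorticoid-responsive, periportal, acute phase and immediate early lists held 1 each, upward. Those of insulin signalling and cAMP held 1 each, downward. Over all genes, 1.75% were called upward and 2.36% downward in that fit. The lists' medians ran from -0.32 for female-biased genes to 0.12 for cholesterol synthesis, around the -0.02 of all genes. Without knockout replicate 3 at ZT8 they ran from -0.49 for female-biased genes to 0.26 for the cell cycle, with cholesterol synthesis at 0.24. The cell cycle median was -0.08 with that array, and that of male-biased genes turned from 0.12 to -0.24, so neither list has a settled direction.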

How the data were processed

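RNA from each liver was read on 1-colour Agilent arrays. The spot intensities are those deposited by the authors as scanner output, made with Agilent Feature Extraction 10.10.1.1 per the submitters' processing notes; probe positions are mm9 per the file headers. The authors' value table was deposited as log2 values of 32801 probes and was used only as an alternative; its sorted values are identical across arrays, as quantile normalization leaves them. Steps before the scan beyond the labels' protocols are not given in the sources used here.

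Background-subtracted signals of 56605 probes were taken as log2 minus each array's 75th percentile. Probes well above background on at least 6 of 36 arrays were kept (34769), and the brightest stood for its gene. Limma 3.58.1 (R 4.3.3) fitted the 6 group means and the wash batch over all 36 arrays, with Benjamini-Hochberg adjustment over 22892 genes. The arrays' number limits the precision. The fit was checked on simulated data with independent normal noise and no deviating array. That check does not cover arrays such as knockout replicate 3 at ZT8.

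The genes named are the 12 largest called differences in each direction among those measured on all 24 arrays with an established symbol, up to 3 called members of each list or else that with the smallest p, the 5 largest in each direction called only without knockout replicate 3 at ZT8, Insr, and all clock genes; some members of these groups are not reported here. Others are said to have been chosen after their values were seen or illustrate a list. The comparison, its members and the lists were chosen with earlier results of these data known. Alternatives covered normalization, background, the authors' table, filters, batch and slide, array weights, the probe rule, pairing, the threshold and each array left out.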

Additional observations from a re-analysis of the deposited data

Results flagged for a closer look

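The 287 genes called by limma are themselves differences between the times in the effect of genotype, and are described above. Single arrays that stood far from the other 5 of their group were looked for in 260 groups over 65 genes and list means. They were found in 27, where chance gives about 1 in 20, or 13, and 7 of the 27 were knockout replicate 3 at ZT8.

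Knockout replicate 3 at ZT8 read 5.63 for Hspa8 (others 6.17 to 6.34). Its list means were 0.86 for clock genes (1.35 to 1.52), 4.15 for FoxO targets (4.44 to 4.60) and 3.98 for glucose and glycogen genes (4.40 to 4.54). They were 0.80 for the cell cycle (-1.80 to -1.24), 2.81 for pericentral genes (3.72 to 3.96) and -0.05 for neutrophil markers (-2.82 to -2.03).

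Control replicate 2 at ZT12 read 0.28 for Acot2 (others -1.58 to -1.01) and 1.82 for Acot4 (0.74 to 1.03). Its list means were 4.23 for PPARα genes (3.50 to 3.72), 5.48 for male-biased genes (6.17 to 6.51) and 1.17 for female-biased genes (-0.81 to -0.43). Knockout replicate 2 at ZT8 read 3.14 for Acot2 (0.40 to 1.35) and 5.76 for Cpt2 (5.08 to 5.28).

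Control replicate 5 at ZT12 read -3.68 for Clec14a (others -3.13 to -2.81) and 5.78 for Hsp90aa1 (5.26 to 5.45), with a heat shock mean of 4.15 (3.82 to 3.91). Control replicate 4 at ZT12 had a bile acid mean of 4.03 (3.77 to 3.86). At ZT8, control replicate 4 read -0.76 for Arl13b (-1.50 to -1.32), and control replicate 6 read -0.084 for Acot2 (-1.13 to -0.81) with a male-biased mean of 5.79 (6.30 to 6.48). Knockout replicate 1 at ZT8 read 3.87 for Hsp90aa1 (4.45 to 4.78).

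Among knockouts at ZT12, replicate 1 read 2.09 for Me1 (others 3.22 to 3.65) and -6.86 for Bhlhe41 (-7.31 to -7.18), which no array of that group measured above background. Replicate 4 had a cholesterol synthesis mean of 3.27 (3.51 to 3.60), replicate 6 a hepatocyte marker mean of 7.87 (8.11 to 8.20) and replicate 3 a bile duct marker mean of -2.61 (-2.20 to -1.99).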

How the results depend on the processing

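No named gene that was called turned its direction, nor did the median of any list with a called member other than amino acid catabolism (-0.04, and 0.04 with the authors' values). Several medians near 0 of lists without a call turned, the farthest being those of cell cycle (-0.08 to 0.26) and male-biased genes (0.12 to -0.24) without knockout replicate 3 at ZT8. In addition, with the mean of all probes the estimate of 1 of the 287 genes had the opposite sign. Against 287 called genes (129 up, 158 down), the count was 133 (66 up, 67 down) with no filter on dim probes, 169 (76 up, 93 down) with the slide as a fixed block, 938 (444 up, 494 down) with array weights, 190 (81 up) with the mean of all probes of a gene and 65 (31 up, 34 down) at an adjusted p under 0.01. With only the 24 arrays in the fit it was 196, of which 100 were down. Leaving out 1 array gave 143 (without knockout replicate 5 at ZT8) to 941 (without knockout replicate 3 at ZT8), with 67 to 400 up and 67 to 541 down. Beyond these 2, the count moved by over 1.5 times without control replicates 4 (179) or 6 (184) or knockout replicate 2 (175) at ZT8, control replicate 5 at ZT12 (157) or knockout replicate 1 at ZT12 (187). Of the 287, 114 were called whichever array was left out. Array weights gave knockout replicate 3 at ZT8 the lowest weight, 0.197. The median of the bile acid list was 0.19 with the mean of all probes and 0.01 with the brightest probe. Why these counts moved was not tested beyond the settings themselves. Replicate numbers did not pair the arrays: of 36 same-number pairs, 4 had deviations correlated over 0.1 (r -0.34 to 0.14), and a fit with the replicate number as a block called 240 genes, 217 of them among the 287. Probes at or near background limit the size of low values such as those of Arntl and Bhlhe41.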

Other observations

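Other called genes, picked out after their values were seen and so given as a description only, belong to processes that no list covered. The mitochondrial coenzyme Q kinase Coq8a and the related Adck5 differed by 1.00 (SE 0.20; without knockout replicate 3 at ZT8 0.99) and 0.98 (SE 0.20; 0.90), from effects of -0.99 and 0.04 at ZT8 and of 0.01 and 1.02 at ZT12. Downward, Nmrk1, which makes NAD from nicotinamide riboside, had an effect of -0.02 at ZT8 and -1.33 at ZT12 (difference -1.31, SE 0.31; without that array -1.35). Tkfc, which phosphorylates the glyceraldehyde made from fructose, had effects of -0.15 and -1.16 (difference -1.02, SE 0.21; without it -1.07). The call on Nmrk1 was lost on leaving out any 1 of 6 arrays and under 3 of 12 other settings, and that on Tkfc with the mean of all its probes.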
